A study of Rattus norvegicus with 6 samples.

Results

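Genes of triglyceride breakdown, in cells or in the circulation, and of VLDL assembly were taken, 10 in number. They were compared between 3 livers from the high-fat diet alone (HFD) and 3 from that diet with HTG treatment (HTG). The genes were taken by symbol from the 32930 rows of the deposited expression table: Pnpla2, Pnpla3, Abhd5, Lipe, Mgll, Lipc, Lipa, Lpl, Mttp and Tm6sf2. Each symbol had 1 row, and all 10 were among the 18455 genes with enough counts to be tested. HTG stands for Huazhuo Tiaozhi granule, a mixture of medicinal herbs used for dyslipidaemia. By the labels the diet of the HFD group came with the vehicle, 0.5% CMC-Na (sodium carboxymethyl cellulose), and the intervention lasted 12 weeks. In the paper's rat experiment the diet lasted 12 weeks, and the drugs were given only in the later part of that time. A label field of the HTG samples spells the treatment HCG, and the samples were grouped by their titles. The labels name rats and a rat genome, the paper's sequencing paragraph names C57BL/6 J mice, and the rows are mouse Ensembl genes, which is how they are read here. The labels give no age, sex or strain.

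Liver cells keep triglyceride in lipid droplets. In the neutral route, ATGL (Pnpla2) with its activator CGI-58 (Abhd5) removes the first fatty acid, hormone-sensitive lipase (Lipe) the next and monoglyceride lipase (Mgll) the last. In the lysosomal route, acid lipase (Lipa) cleaves triglyceride and cholesteryl esters. For export, MTP (Mttp) loads lipid onto apolipoprotein B in the endoplasmic reticulum, TM6SF2 helps to fill the growing VLDL particle, and in the circulation lipoprotein lipase (Lpl) and hepatic lipase (Lipc) digest the lipoproteins.

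The estimated counts, which the authors deposited as whole numbers, totalled 65353298 to 70910444 in the HFD libraries and 50648778 to 90563477 in the HTG libraries. Among the low values 4 was the most frequent (6450 times), but 1 to 3 were common too (11882 times together), so how many counts a sequenced fragment gave is not known and no counting limit is set here. Values in CPM divide each count by the TMM-normalised library total, and FPKM, which the authors scaled by both gene length and depth, were used to compare levels between genes. Log2 fold changes are HTG over HFD. The mitochondrial genome took 4.97 to 6.45% of the counts in HFD and 9.31 to 15.2% in HTG libraries, and a fit without those rows gave -1.54 for Lipa and -1.01 for Mttp as log2 fold changes. All 8 hepatocyte markers were present, with summed levels of 40540 to 45030 FPKM (HFD) and 32500 to 35730 FPKM (HTG), of which Alb made up the most. In 4 of the 8 every HTG library lay below every HFD library in CPM, against 15.5% of all genes tested. Cps1 (log2 fold change -1.62) and Tat (-1.32) had an unadjusted p under 0.05 in edgeR's test. That is 25.0% of the 8, against 12.4% of all genes tested in the lower direction. The part of the hepatocyte markers in the differences below was not tested. The adipocyte markers summed to 1.6 to 2.17 FPKM in HFD and 5.42 to 12.5 FPKM in HTG libraries. Adipoq was at 0 in every library, and nearly all of the sum was Adrb3, a beta-adrenergic receptor gene and the only one of these markers with enough counts to be tested. Adrb3 had 6.69 ± 0.67 CPM in HFD and 33.3 ± 13.1 CPM in HTG (SD, n = 3 per group), with no overlap (log2 fold change 2.31, unadjusted p = 6.14e-05 and adjusted p = 0.0538 in edgeR, adjusted p = 6.13e-09 in DESeq2). The 8 skeletal muscle markers summed to at most 0.71 FPKM.

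The clearest differences were in the lysosomal lipase and in the VLDL loading protein. Mean Lipa in HTG livers was 0.343 times and mean Mttp 0.496 times the HFD mean. Pnpla2 (0.531 times) and its activator Abhd5 (0.743 times) also had lower means in HTG. The remaining 6 genes showed no difference that could be told from the spread between libraries. After Benjamini-Hochberg adjustment of edgeR's quasi-likelihood p-values over the 18455 genes, 0 of the 10 had an adjusted p under 0.05, where 0.0108% of all genes tested had one. At an unadjusted p under 0.05, 4 of the 10 were lower in HTG and 0 were higher, against 12.4% and 12.3% of all genes tested. In 3 genes (Lipa, Mttp and Abhd5) every HTG library lay below every HFD library in CPM, and in 0 genes every HTG library lay above, against 15.5% and 16.5% of all genes tested. DESeq2 put Lipa and Mttp under an adjusted p of 0.05, where it did so for 7.1% of all genes tested in the lower direction. The median log2 fold change of the 10 genes was -0.33, and that of all genes tested 0.03. The labels do not say whether the libraries of a group were prepared independently, so p-values measure the spread between these libraries. A design of 3 against 3 cannot go below p = 0.1 in an exact permutation test of a single gene.

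**Figure D1:**
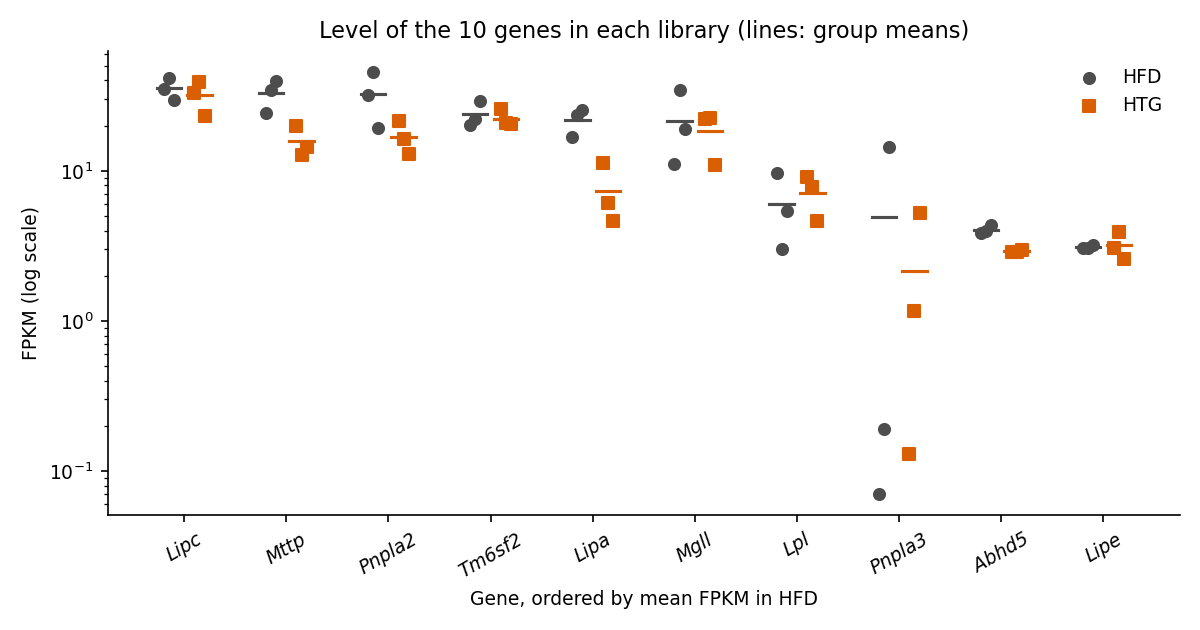
FPKM of each gene in each of the 6 libraries on a log axis, with circles for HFD, squares for HTG and short lines for group means. The HTG squares of Lipa, Mttp and Abhd5 lie below all of their HFD circles, and Pnpla3 spans 0.07 to 14.5 FPKM within the HFD group.

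Lipa encodes lysosomal acid lipase (ENSMUSG00000024781, chromosome 19, 34469718 to 34504874, minus strand; the table names no build for its coordinates). HFD libraries 1, 2 and 3 held 114.5, 175.5 and 173.5 CPM of Lipa, and the HTG libraries, in the same order, held 81.6, 41.2 and 36.2 CPM. The groups did not overlap, and HFD library 1 and HTG library 1 were the closest to each other. The means were 154 ± 34.6 and 53.0 ± 24.9 CPM (SD, n = 3 per group). On the log2 scale the fold change was -1.54 (standard error 0.34, 95% interval -2.32 to -0.77; unadjusted p = 0.00166 and adjusted p = 0.0606, edgeR's quasi-likelihood test). Its sign and its unadjusted call held in all 17 alternative fits, with values between -2.04 and -1.32 and adjusted p-values from 0.000265 (DESeq2) to 0.206. The adjusted p was under 0.05 in 6 of the 17. Among the fits with a library left out, only that without HTG library 1 was so (0.0414, edgeR). In bulk liver, fewer cells that express a gene and less RNA per cell cannot be told apart. Lipa is also strong in macrophages, whose 8 markers summed to 253 to 543 FPKM in HFD and 175 to 339 FPKM in HTG libraries. All 8 had a lower fitted value in HTG, as had 8933 of the 18455 genes tested. Adgre1 (log2 fold change -1.53) and Cd5l (-0.86) had an unadjusted p under 0.05 in edgeR's test. That is 25.0% of the 8, against 12.4% of all genes tested. Marco (-0.63), Csf1r (-0.45), Vsig4 (-0.43), Cd68 (-0.41), Clec4f (-0.08) and Timd4 (-0.02) had an unadjusted p of 0.05 or more in that test. The 95% intervals were wide even for the values nearest 0, at -1.65 to 1.61 for Timd4 and -0.78 to 0.62 for Clec4f. The part of these markers in the Lipa difference was not tested.

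Promoter sequences were at hand for 7 of the 10 genes, from the rat RefSeq assembly GRCr8, as rows by symbol. Those of the 3 matched genes that were lower in HTG are shown, since their values were lower in the same group. Each run is the 250 bases before the annotated start, 5′ to 3′ on the gene's strand, for a gene whose values come from mouse rows. Capitals mark every match, on either strand, to 5 short words, and no matches overlap. The words were the E-box CACGTG, the nuclear receptor word AGGTCA, the GC box GGGCGG, the promoter word CCAAT and the HNF1 word GTTAAT.
Lipa, chr1:241470741-241470990, minus strand: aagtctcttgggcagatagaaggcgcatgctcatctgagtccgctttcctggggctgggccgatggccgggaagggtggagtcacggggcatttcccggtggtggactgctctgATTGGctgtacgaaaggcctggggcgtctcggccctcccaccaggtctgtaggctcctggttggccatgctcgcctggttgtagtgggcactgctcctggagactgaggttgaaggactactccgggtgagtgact
Pnpla2, chr1:205982029-205982278, plus strand: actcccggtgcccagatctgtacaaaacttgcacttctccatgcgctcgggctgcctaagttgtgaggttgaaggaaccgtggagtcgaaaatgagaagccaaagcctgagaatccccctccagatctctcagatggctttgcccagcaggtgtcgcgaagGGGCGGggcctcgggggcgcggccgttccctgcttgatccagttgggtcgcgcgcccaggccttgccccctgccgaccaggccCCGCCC
Abhd5, chr8:130877622-130877871, plus strand: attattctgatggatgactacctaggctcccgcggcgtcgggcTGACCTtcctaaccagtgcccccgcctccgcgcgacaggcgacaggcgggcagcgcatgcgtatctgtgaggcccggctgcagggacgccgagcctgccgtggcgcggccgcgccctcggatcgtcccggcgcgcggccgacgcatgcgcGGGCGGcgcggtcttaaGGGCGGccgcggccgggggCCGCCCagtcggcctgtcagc
The window of Lipa held CCAAT once and none of the other words. That of Pnpla2 held 2 GC boxes and that of Abhd5 held 3, with 1 AGGTCA further from the start. Of all 33469 windows of this length, 34.0% held CCAAT, 30.5% a GC box, 14.1% AGGTCA, 6.45% GTTAAT and 5.59% an E-box. The windows of Pnpla2, Lipa and Abhd5 were 63.6%, 61.6% and 74.4% G and C. A match is a word in these letters and was not tested as a site.

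Other lysosomal genes had lower values as well, none past the adjusted threshold in edgeR's main fit. Of 12 genes for lysosomal lipid export, membrane proteins and enzyme delivery, all tested, 7 (58.3%) were lower at an unadjusted p under 0.05 and 0 were higher, against 12.4% and 12.3% of all genes tested. This list and those below were chosen with earlier results of these data known, so their shares are not independent support. The list's median log2 fold change was -0.65, against 0.03 over all genes tested. The macrophage markers given beside Lipa had fitted values from -1.53 (Adgre1) to -0.02 (Timd4). Of these 8 markers, 2 were lower at an unadjusted p under 0.05 (25.0%, against 12.4% of all genes tested). Their part in the lysosomal values was not tested. Igf2r, the large mannose 6-phosphate receptor that carries enzymes to the lysosome, had 33.3 ± 6.16 CPM in HFD and 18.0 ± 1.02 CPM in HTG (SD, n = 3 per group; log2 fold change -0.89, standard error 0.18). Lamp1, an abundant lysosomal membrane protein, had 680 ± 61.1 and 313 ± 111 CPM (SD, n = 3 per group; log2 fold change -1.12, standard error 0.28). Scarb2, which encodes the membrane protein LIMP-2, had a log2 fold change of -1.26 (standard error 0.31). Npc2 (-1.02), Ctsd (-1.06), Lamp2 (-0.78) and Rab7 (-0.51) were the others, named after their values were seen. Npc1, the cholesterol exporter that works with NPC2, had -0.29 (unadjusted p = 0.34), and Tfeb, a transcription factor of lysosomal genes, picked out after its value was seen, had 0.16. The smallest adjusted p of the list was 0.0582 (edgeR's quasi-likelihood test). DESeq2 put 6 of the 12 under 0.05, all lower, where it did so for 7.1% of all genes tested in that direction. Leaving out each library in turn gave 6 or 7 lower genes.

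Mttp (ENSMUSG00000028158, chromosome 3, 137795615 to 137849149, minus strand) encodes the large subunit of MTP, without which apolipoprotein B is not lipidated. It had 149, 237 and 248 CPM in HFD libraries 1, 2 and 3, against 133, 77.9 and 103.5 CPM in the HTG libraries in that order. The groups did not overlap, but HFD library 1 and HTG library 1 were near each other. Its log2 fold change was -1.01 (standard error 0.28, 95% interval -1.65 to -0.38; unadjusted p = 0.00596 and adjusted p = 0.0818, edgeR's quasi-likelihood test). It kept its sign and an unadjusted p under 0.05 in all 17 alternatives, from -1.26 to -0.84, with adjusted p-values from 0.00613 (DESeq2) to 0.243.

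Tm6sf2 (ENSMUSG00000036151, chromosome 8, 70525574 to 70532716, plus strand) had 38.2, 46.8 and 56.2 CPM in the HFD libraries, against 52.3, 39.0 and 44.7 CPM in the HTG libraries, so the groups overlapped throughout. Its log2 fold change was -0.05, with a 95% interval of -0.51 to 0.41, which leaves out the fitted value of Mttp. The difference between these genes was not tested.

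Of 23 other genes of VLDL assembly and secretion, all tested, 6 (26.1%) were lower and 4 (17.4%) higher at an unadjusted p under 0.05, against 12.4% lower and 12.3% higher among all genes tested. The list's median log2 fold change was -0.17, against 0.03 over all genes tested. Apob, the structural protein of the particle and the partner of MTP, had 3325 ± 692 CPM in HFD and 1611 ± 461 CPM in HTG (SD, n = 3 per group; log2 fold change -1.05, standard error 0.29). The others with lower values included Sec23a, a coat protein of the vesicles that leave the endoplasmic reticulum (log2 fold change -0.77), and Tor1aip1, an activator of torsins (-0.63). The small GTPase gene Sar1b of the same vesicle coat had -0.96, and the cargo receptor genes Mia2 and Mia3 had -0.44 and -0.46 (these 3 were named after their values were seen). The 4 higher genes were Apoc3, an inhibitor of lipoprotein clearance that also rides on VLDL (log2 fold change 0.99, standard error 0.22), the carboxylesterases Ces3b (1.42, standard error 0.35) and Ces3a (0.79, named after its value was seen), and Smlr1 (0.81). P4hb, the small subunit of MTP, had -0.17 (unadjusted p = 0.521), and Cideb, which takes part in filling VLDL, had -0.23 (unadjusted p = 0.267). The smallest adjusted p was 0.0582 (edgeR's quasi-likelihood test), and DESeq2 put 4 lower and 4 higher genes under 0.05, where it did so for 7.1% (lower) and 5.91% (higher) of all genes tested. Without HTG library 3 the number of lower genes was 3.

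**Figure D2:**
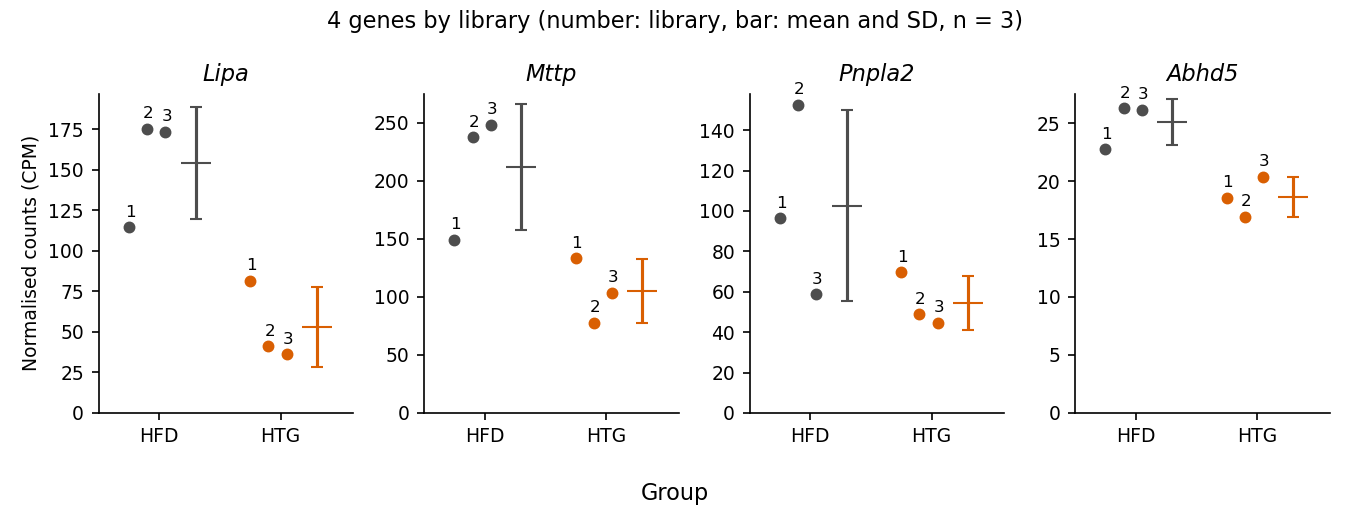
Normalised counts (CPM, linear axis from 0) of Lipa, Mttp, Pnpla2 and Abhd5 by group, with the library number above each point and the mean and SD (n = 3) beside it. Pnpla2 in HFD library 3 (58.8 CPM) lies below HTG library 1 (69.8 CPM), and the groups of the other 3 genes do not overlap.

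Pnpla2 (ENSMUSG00000025509, chromosome 7, 141035111 to 141040656, plus strand) encodes ATGL, the lipase that starts droplet lipolysis. It had 96.4, 153 and 58.8 CPM in HFD libraries 1, 2 and 3, against 69.8, 49.0 and 44.8 CPM in the HTG libraries in that order. HFD library 2 stood highest, and HFD library 3 fell between HTG libraries 1 and 2. The log2 fold change was -0.91 (standard error 0.34, 95% interval -1.70 to -0.13; unadjusted p = 0.0276 and adjusted p = 0.149, edgeR's quasi-likelihood test). The unadjusted call rested on single libraries: the value was -0.51 (unadjusted p = 0.117) without HFD library 2, -0.96 (unadjusted p = 0.0502) without HFD library 1, -0.84 (unadjusted p = 0.0801) without HTG library 2 and -0.77 (unadjusted p = 0.0897) without HTG library 3, all in edgeR's test. No alternative gave an adjusted p under 0.05 (0.0513 to 0.361).

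Abhd5 (ENSMUSG00000032540, chromosome 9, 122180673 to 122210589, plus strand) encodes CGI-58, which activates ATGL and has no lipase activity of its own on triglyceride. It had 22.8, 26.3 and 26.2 CPM in the HFD libraries, against 18.6, 16.9 and 20.4 CPM in the HTG libraries. The groups were tight and did not overlap. The log2 fold change was -0.43 (standard error 0.16, 95% interval -0.79 to -0.07; unadjusted p = 0.0237 and adjusted p = 0.139, edgeR's quasi-likelihood test), smaller in size than that of Pnpla2, a difference that was not tested. The unadjusted p was 0.0528 without HFD library 2, 0.0577 without HFD library 3 and 0.0797 without HTG library 2 (edgeR's test), and the adjusted p ran from 0.0784 to 0.361 over the alternatives.

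The later lipases of the neutral route overlapped between the groups. Lipe (ENSMUSG00000003123, chromosome 7, 25078952 to 25098135, minus strand) had 18.0, 19.9 and 19.1 CPM in the HFD libraries, against 19.3, 22.8 and 17.6 CPM in the HTG libraries. Its log2 fold change was 0.07, with a 95% interval of -0.31 to 0.44. Mgll (ENSMUSG00000033174, chromosome 6, 88701394 to 88805342, plus strand) had 56.5, 193 and 96.8 CPM in the HFD libraries, against 120, 113.5 and 63.5 CPM in the HTG libraries. HFD library 2 was again the highest, the log2 fold change was -0.22 with an interval of -1.21 to 0.77, and without HFD library 2 it was 0.37. The fitted value of Mttp lies within this interval.

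Pnpla3 (ENSMUSG00000041653, chromosome 15, 84052038 to 84071437, plus strand) encodes adiponutrin, a droplet protein related to ATGL, and its level varied widely within each group. It had 8, 22 and 1626 counts in the HFD libraries, against 18, 176 and 434 in the HTG libraries. The third library of each group was the highest of its group. The fitted log2 fold change was -1.05 (standard error 1.69, unadjusted p = 0.552), and without HFD library 3 it was 4.05 (edgeR, unadjusted p = 0.0277), so no direction can be read from it. Pnpla5, a patatin-like gene that lies 44661 bases before Pnpla3 in the table's coordinates and did not pass the expression filter, was picked out after its values were seen. It had 0, 0 and 360 counts in the HFD libraries, against 0, 6 and 91 in the HTG libraries, so both genes were highest in HFD library 3 and next in HTG library 3.

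Of 21 other genes of droplet lipolysis, 17 were tested and Plin1, Cidea, Pnpla1 and Pnpla5 had too few counts. At an unadjusted p under 0.05, 8 (47.1%) were lower and 2 (11.8%) higher, against 12.4% lower and 12.3% higher among all genes tested, so the higher share was no larger than the background. The list's median log2 fold change was -0.75, against 0.03 over all genes tested. The 3 lower genes with the smallest p were Pnpla8, a phospholipase of mitochondria and peroxisomes (-1.26, standard error 0.26), Abhd15 (-0.998, standard error 0.22) and the droplet coat gene Plin3 (-0.75, standard error 0.16). The coat gene Plin2 was picked out after its values were seen. It had 236, 1186 and 282 CPM in the HFD libraries, against 247, 85.0 and 106 CPM in the HTG libraries. Its groups overlapped in CPM but not in FPKM. Its log2 fold change was -1.96 (edgeR, unadjusted p = 0.0188, and 0.0621 with a replicate block). HFD library 2 stood far above the rest. The same library led for G0s2, the inhibitor of ATGL, with 52.3, 312 and 55.6 FPKM in HFD and 81.4, 82.6 and 11.4 FPKM in HTG libraries. G0s2 had a log2 fold change of -1.31 (unadjusted p = 0.165), and Plin5, which holds CGI-58 at the droplet, had -1.46 (unadjusted p = 0.102). Without HFD library 2 these values were 0.17 and -0.02. The higher genes were the phospholipases Pnpla6 (0.75, standard error 0.16) and Ddhd1 (0.76, standard error 0.19). The smallest adjusted p was 0.0585 (edgeR's quasi-likelihood test). DESeq2 put 4 lower and 2 higher genes of the 17 under 0.05, where it did so for 7.1% (lower) and 5.91% (higher) of all genes tested. The number of lower genes was 4 without HFD library 2, without HTG library 2 and without HTG library 3, and 5 in a fit blocked on replicate number.

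The secreted lipases overlapped between the groups. Lipc (ENSMUSG00000032207, chromosome 9, 70705410 to 70859508, minus strand), the gene of hepatic lipase, had 75.6, 98.2 and 64.5 CPM in the HFD libraries, against 76.6, 83.2 and 57.3 CPM in the HTG libraries. Its log2 fold change was -0.13 with a 95% interval of -0.65 to 0.38. Lpl (ENSMUSG00000015568, chromosome 8, 69333143 to 69359586, plus strand), the gene of lipoprotein lipase, had 101, 34.9 and 57.2 CPM in the HFD libraries, against 102, 80.9 and 55.4 CPM in the HTG libraries. HFD library 2 was the lowest, and the same library had the lowest summed FPKM of the macrophage markers in its group (253, against 543 and 519) and of the endothelial markers (13.3, against 38.9 and 28.8), whose part in its Lpl level was not tested. The log2 fold change of Lpl was 0.31 with an interval of -0.57 to 1.18.

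Of 16 genes that mature or regulate the secreted lipases, all tested, 4 (25.0%) were lower and 2 (12.5%) higher at an unadjusted p under 0.05. Among all genes tested the shares were 12.4% and 12.3%, so the higher share was that of the background. The list's median log2 fold change was -0.16, against 0.03 over all genes tested. The lower ones were the convertases Pcsk6 (-0.94, standard error 0.18) and Furin (-0.72, standard error 0.20), which cut secreted lipases, Lipg, the gene of endothelial lipase (-2.18, standard error 0.70), and the heparan sulphate proteoglycan gene Sdc1 (-1.13, named after its value was seen). In CPM the groups of Pcsk6 and Furin did not overlap. Those of Lipg and Sdc1 did, with HFD library 1 inside the HTG range for both genes. The call of Lipg was lost without HTG library 1 (edgeR, unadjusted p = 0.0505). Apoc1, an inhibitor of lipoprotein lipase, had 1339 ± 169 CPM in HFD and 3438 ± 838 CPM in HTG (SD, n = 3 per group; log2 fold change 1.36, standard error 0.26). Angptl8, an inhibitor of lipoprotein lipase, had 34.4, 20.7 and 61.7 FPKM in HFD and 95.4, 416 and 31.0 FPKM in HTG libraries. HTG library 3 was inside the HFD range. The call of Angptl8 was lost without HFD library 1, HFD library 2 or HTG library 2, which left 1 higher gene in the list, and in a fit blocked on replicate number (edgeR, unadjusted p = 0.136). Without HTG library 3 the list had 3 higher genes. Angptl4 had -1.13 (unadjusted p = 0.0792), Lmf1, the lipase maturation factor, 0.33 (unadjusted p = 0.0593) and Gpihbp1, the endothelial anchor of lipoprotein lipase, 0.42 (unadjusted p = 0.23), as log2 fold changes. The smallest adjusted p was 0.0582 (edgeR's quasi-likelihood test). DESeq2 put 4 lower genes and 1 higher gene of the 16 under 0.05, where it did so for 7.1% (lower) and 5.91% (higher) of all genes tested. The higher count was thus about that of the background.

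**Figure D3:**
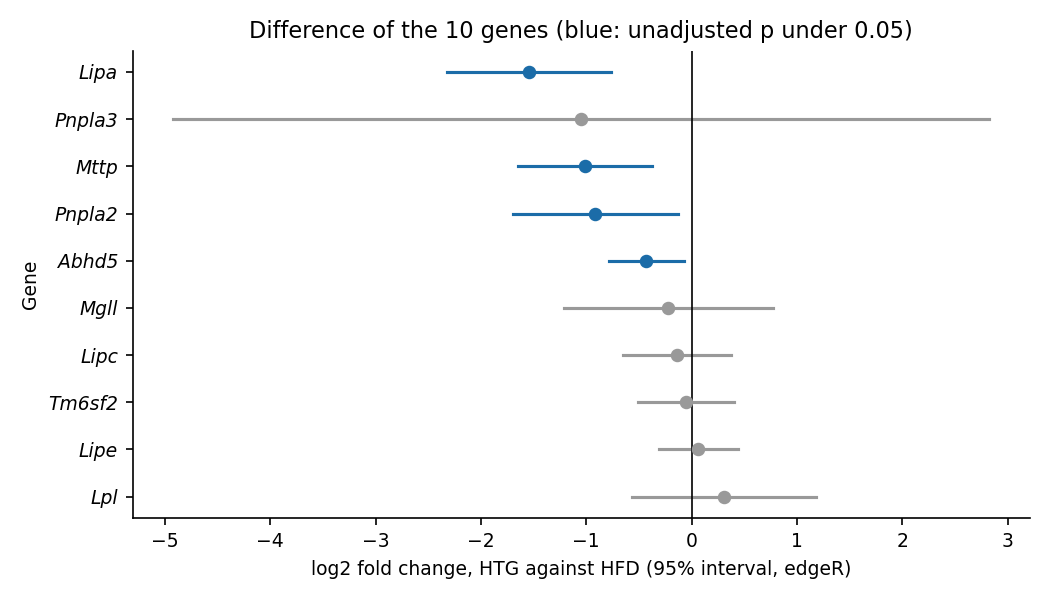
Log2 fold change of each gene in HTG against HFD with its 95% interval from edgeR, in blue where the unadjusted p was under 0.05. The intervals of Lipa, Mttp, Pnpla2 and Abhd5 lie below 0, and that of Pnpla3 runs from -4.92 to 2.82.

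Per length, the order of the levels in the HFD group was Lipc (35.5 ± 5.75 FPKM), Mttp (32.8 ± 7.94), Pnpla2 (32.3 ± 13.2), Tm6sf2 (23.9 ± 4.84), Lipa (21.9 ± 4.43), Mgll (21.5 ± 11.8), Lpl (6.03 ± 3.37), Pnpla3 (4.93 ± 8.31), Abhd5 (4.06 ± 0.27) and Lipe (3.11 ± 0.10), all mean FPKM ± SD with n = 3. Neighbours from Lipc to Mgll overlapped in their library values, as did Lpl, Pnpla3 and Abhd5. Between Mgll and Lpl, and between Abhd5 and Lipe, the library values did not overlap. In the HTG group Lipc (31.8 ± 8.04 FPKM) and Tm6sf2 (22.3 ± 2.93) led, ahead of Mgll (18.5 ± 6.63), Pnpla2 (16.9 ± 4.36) and Mttp (15.7 ± 3.83), and Lipa had 7.33 ± 3.45 FPKM (SD, n = 3), close to Lpl at 7.16 ± 2.31. The activator Abhd5 was at a lower level per length than the lipase it activates in every library.

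**Figure D4:**
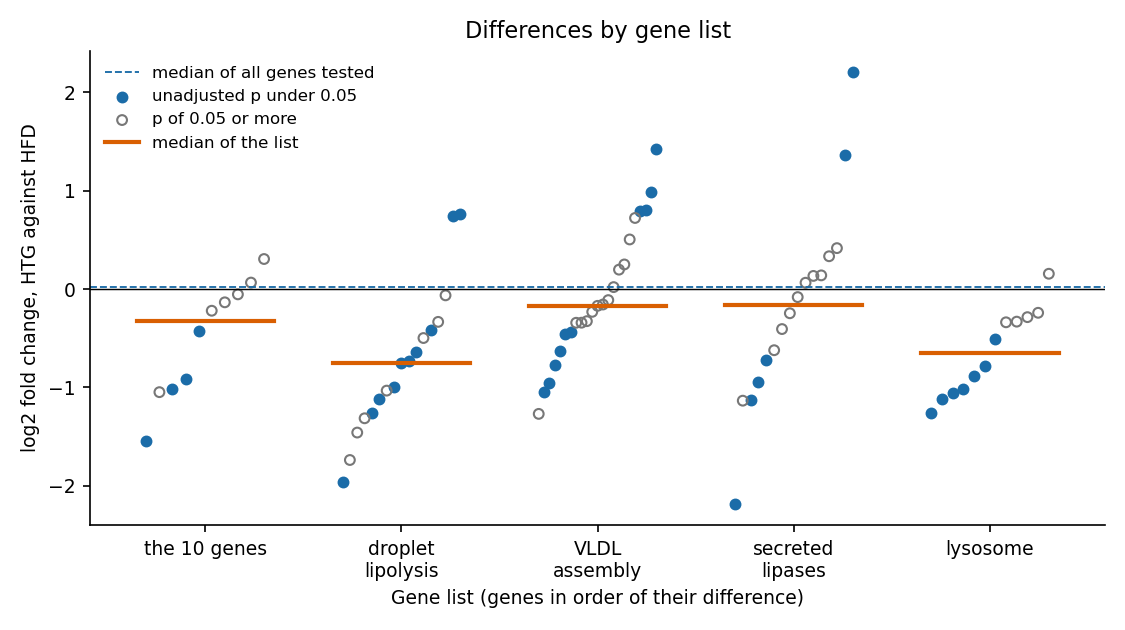
Log2 fold change in HTG against HFD of each tested gene in the 10 genes and the 4 further lists, filled where the unadjusted p was under 0.05, with list medians as orange lines and the median of all genes tested as a dashed line. The lysosome list has no filled point above 0, while the VLDL assembly and secreted lipase lists have filled points on both sides.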

How the data were processed

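RNA from 6 livers, 3 per group, had been sequenced as strand-marked poly(A) libraries. The authors deposited 1 table with estimated counts and FPKM per gene and library, and the submitters' processing notes name HISAT2, StringTie, SAMtools and mRatBN7.2, although the rows carry mouse identifiers. Whether strand was used in counting is not given in the sources used here. The estimated counts, which the authors deposited as whole numbers, were tested with edgeR 4.0.16 (R 4.3.3; TMM, filterByExpr, quasi-likelihood F test, Benjamini-Hochberg adjustment, threshold 0.05), after a test on simulated data. The FPKM values the authors deposited served for levels. DESeq2 1.42.0, its size factors or upper-quartile scaling in edgeR, limma 3.58.1 on log2(FPKM + 0.1 or 1), the former also unfiltered, no or a stricter count filter, counts divided by 4 (the most frequent low value), a replicate block, a fit without mitochondrial rows and leaving out each library were the 17 alternatives.

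The members and lists were chosen with earlier results of these data known. Named were all 10 members, fixed partners, and per list up to 3 genes in each direction with the smallest unadjusted p under 0.05. Others are marked where named, apart from cell markers. Promoter sequences are from RefSeq (GRCr8). No sequence is shown for Mttp, Lpl and Lipe. Columns of no sample numbered 0.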

Additional observations from a re-analysis of the deposited data

How the results depend on the processing

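Lipa and Mttp kept their sign and an unadjusted p under 0.05 in all 17 alternatives. Pnpla2 lost that p in 4 and Abhd5 in 3, each time with a library left out. Lpl kept its sign but had an unadjusted p of 0.05 or more in all 17, with log2 fold changes from 0.005 to 0.79. The number of genes with an adjusted p under 0.05, 2 in edgeR's test, depended strongly on the fit. It was 2401 with DESeq2, 878 and 884 with limma on log2(FPKM + 0.1) and log2(FPKM + 1), 0 with limma without a filter, 684 with at least 10 counts in every library, 162 without a filter, 822 with counts divided by 4, 14 without mitochondrial rows, 0 with the replicate block and 0 to 653 with a library left out (653 without HTG library 1). The cause was not tested. Of the 10 genes, the number with an adjusted p under 0.05 was 2 with DESeq2 and with limma at either pseudocount, 1 with the stricter filter and with counts divided by 4, and 0 to 1 with a library left out. With a library left out, 2 to 4 of the 10 were lower at an unadjusted p under 0.05 (2 without HFD library 2 or HTG library 2) and 0 to 1 higher (Pnpla3 without HFD library 3). In the lists, leaving out a library gave 4 to 10 lower droplet genes, 3 to 7 lower VLDL genes and 1 to 3 higher genes of the secreted lipase list, and the replicate block gave 5 lower droplet genes and 1 higher gene of the secreted lipase list.

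The log2 fold change of Pnpla3 was 0.37 in both limma fits with a pseudocount of 0.1, 0.58 with the replicate block and -2.92 to 4.05 with a library left out, and the stricter filter gave it no value. With a library left out, Lipe ran from -0.045 to 0.15, Mgll from -0.55 to 0.37, Lipc from -0.27 to 0.043 and Tm6sf2 from -0.21 to 0.090. Deviations of same-numbered libraries correlated at -0.08, -0.07 and 0.10, so the numbers were not taken to pair the samples. With the replicate block the log2 fold changes of Lipa, Mttp, Pnpla2 and Abhd5 were -1.63, -1.02, -0.83 and -0.43.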
